A study of Mus musculus with 23 samples.

Results

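The 8 genes described here are the keratins Krt7, Krt8, Krt18, Krt19, Krt20, Krt23 and Krt80 and the vimentin gene Vim, taken by name from the 22350 genes of the RNA-seq tables; 46 further keratin genes are in the same tables. RNA-seq of mRNA and Ribo-seq of ribosome-protected fragments (footprints) together gave 23 libraries from C57BL/6 mouse intestine. Organoids are epithelial cultures started from crypts. Those called wild type (WT) carried VillinCre.ERT2.RPL22.HA, a tamoxifen-dependent Cre driven in the intestinal epithelium together with an HA-tagged ribosomal protein. Rptor fl/fl organoids carried VillinCre.ERT2.Rptor.fl/fl in RNA-seq, with no tag in their label, while Ribo-seq used VillinCre.ERT2.Rptor.fl/fl.RPL22.HA; Rptor encodes Raptor, a subunit of the kinase complex mTORC1. Stem cell enriched (SCe) organoids had the WT genotype and were grown with CHIR 99021 at 10 μM, an inhibitor of the kinase GSK3, and valproic acid at 1.5 mM, an inhibitor of histone deacetylases. In mice, Cre was driven from Lgr5, a stem cell gene, with the genotype Lgr5Cre.ERT2.RPL22.HA in WT mice; Rptor fl/fl mice were Lgr5Cre.ERT2.Rptor.fl/fl.RPL22.HA, and tagged ribosomes were pulled down from the small intestine. The methods of the study describe tamoxifen given to adult mice, with Lgr5Cre mice sampled on the day after, and to some organoids in culture, while the labels call all groups other than SCe untreated.

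RNA-seq covered 2 WT and 2 Rptor fl/fl organoid lines, each with 2 technical libraries that were summed, and 3 SCe libraries; Ribo-seq covered 3 libraries of each organoid group and 3 mice of each genotype. Depth ran from 23802944 to 67598878 assigned reads per RNA-seq library, from 1106178 to 8257457 per organoid Ribo-seq library and from 772077 to 8238388 per mouse library. Rptor mRNA was lower in Rptor fl/fl than in WT organoids (log2 fold change -1.71, adjusted p = 0.00516), but Rptor footprints did not differ past the threshold in organoid Ribo-seq (-0.53 against SCe, adjusted p = 0.318) or in mice (-0.28, adjusted p = 0.150), so those libraries are named by their labels. Summed stem cell markers were 4988 to 5322 CPM in the Ribo-seq libraries labelled Rptor fl/fl and 803 to 2042 CPM in RNA-seq of the same label. SCe also differed between assays, with sums of 1547 to 3041 CPM in Ribo-seq. Mean Olfm4 was 4482 CPM in Ribo-seq and 1101 CPM in RNA-seq of Rptor fl/fl, and 807 and 76.7 CPM in SCe. Footprint and mRNA levels are thus not on 1 scale for these markers. Summed stem cell markers were 826 to 1606 CPM in RNA-seq of SCe against 3561 and 5126 CPM in WT, with 2 of 5 called lower (Olfm4 and Ascl2) and 0 higher (edgeR). Most of that sum in WT was Olfm4, at 2864 to 4432 CPM against 42.2 to 135 CPM in SCe. Lgr5 (219 to 337 against 197 to 215 CPM) and Smoc2 (418 to 809 against 271 to 299 CPM) were above WT in every SCe library without passing the threshold, and Axin2 overlapped. The first SCe library stood apart in both assays: its 8 enterocyte markers summed to 230 CPM against 5822 and 6793 in the other RNA-seq libraries of SCe, and to 855 against 2934 and 3305 CPM in Ribo-seq. The mouse pulldowns carried 42300 to 51453 CPM of enterocyte markers, 347 to 576 CPM of stem cell markers and 1329 to 1856 CPM of fibroblast markers, so they hold ribosomes of many cell types beside Lgr5-positive cells. In all these bulk samples, fewer cells of a type and less RNA per cell cannot be told apart.

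Keratins are the intermediate filament proteins of epithelial cells. A filament is built from pairs of a type I keratin and a type II keratin, so both types are made together, and KRT8 with KRT18, KRT19 and KRT20 forms the network of the intestinal epithelium. Vimentin builds its own filaments in mesenchymal cells such as fibroblasts, in endothelium and in leukocytes, and is a common marker of cells that are not epithelial. Among the members, Krt7, Krt8 and Krt80 encode type II keratins and Krt18, Krt19, Krt20 and Krt23 encode type I keratins. Krt20 is known from differentiated cells of the villus, and Krt7 from simple and ductal epithelia.

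On the GRCm38 (mm10) genome the type II genes lay on chromosome 15 and the type I genes on chromosome 11, with Krt18 as the exception. Krt18 (chr15:102028180-102032027, plus strand) is next to its partner Krt8 (chr15:101996698-102004482, minus strand), 23697 bases away, with no keratin gene between them. Krt7 (chr15:101411043-101430313, plus strand) and Krt80 (chr15:101347444-101370162, minus strand) lay 40880 bases apart in the same cluster, and 23 other keratin genes stood between Krt7 and Krt8. Krt20 (chr11:99428403-99438150) and Krt23 (chr11:99477974-99493137) were 39823 bases apart on the minus strand, and Krt19 (chr11:100140810-100148665, minus strand) was 702659 bases from Krt20 with 12 keratin genes between them. Vim (chr2:13573927-13582826, plus strand) is on its own.

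The coding sequences (GENCODE vM21, GRCm38) of these genes are related, and the longest run of letters shared by any pair of members was 30 bases, between the type II genes Krt7 and Krt8. It is shown because a read that lies within it cannot be assigned to either gene by its letters, and it spans coding bases 322 to 351 of Krt7 and 358 to 387 of Krt8.
Krt7 and Krt8: cagcagaacaagatgctggagaccaagtgg

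At the length of a footprint, taken here as 28 bases, few windows of the coding sequences occurred in another gene of the tables. The share was 2.63% for Krt8, 2.68% for Krt7, 2.12% for Krt19, 1.02% for Vim and 0.527% for Krt80, and no such window was found for Krt18, Krt20 or Krt23. Counting all annotated transcripts, however, 45.5% of the Krt8 windows and 16.5% of the Krt18 windows recur elsewhere, most of them in the pseudogenes Krt8-ps and Gm5200. Neither pseudogene is among the sequences the reads were counted on, so reads from them could enter Krt8 or Krt18.

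RefSeq promoters (GRCm38.p6) were at hand for 6 members: Krt7, Krt8, Krt18, Krt20, Krt23 and Vim. The 250 bases before the start were searched on both strands for 6 motifs. The TATA box was searched as TATAAA. The letters of the GC box were GGGCGG. The CCAAT box was searched by its name, and an E-box as CACGTG. The AP-1 site was taken as TGANTCA. Sites of TCF/LEF factors were searched as CTTTGAT. Krt8 and Krt18, the neighbouring pair, held none of these motifs, Krt23 held an E-box, Krt20 held a TATA box, and Krt7 held 4 GC boxes. Of all 32851 promoters, 12.4% held the TATA box, 32.7% the GC box, 33.8% the CCAAT box, 6.02% the E-box, 6.75% the AP-1 site and 3.21% the TCF/LEF site. No matches in the members overlapped each other. Vim had a TATA box and 2 CCAAT boxes in its window, which overlaps a transcribed exon and is not printed. The Krt7 window lies within the annotated gene, which starts at chr15:101411043. Up to 150 bases before the start of the transcript are given for the neighbouring pair and for the members with motifs near the start, 5′ to 3′ on the gene's strand with motif matches in capitals.
Krt8 (chr15:102004483-102004592, minus strand): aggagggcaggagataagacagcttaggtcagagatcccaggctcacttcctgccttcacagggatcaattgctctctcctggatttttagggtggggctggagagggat
Krt18 (chr15:102028030-102028179, plus strand): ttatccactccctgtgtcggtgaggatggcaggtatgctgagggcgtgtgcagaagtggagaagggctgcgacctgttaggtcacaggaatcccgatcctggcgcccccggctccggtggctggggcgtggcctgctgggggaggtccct
Krt7 (chr15:101412252-101412401, plus strand): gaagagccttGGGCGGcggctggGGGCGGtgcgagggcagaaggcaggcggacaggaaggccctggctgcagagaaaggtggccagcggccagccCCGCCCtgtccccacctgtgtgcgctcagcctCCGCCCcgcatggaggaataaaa
Krt20 (chr11:99438154-99438303, minus strand): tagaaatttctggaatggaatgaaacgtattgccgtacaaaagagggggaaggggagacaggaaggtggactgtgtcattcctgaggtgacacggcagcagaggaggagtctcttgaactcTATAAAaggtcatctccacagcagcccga
A match is a run of letters in this window and nothing more.

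In RNA-seq, SCe cultures had less Krt7, Krt8, Krt18 and Krt19 mRNA and more Vim mRNA than WT organoids. Counts are given as CPM, estimated counts per 1000000 reads with TMM scaling, and a gene was called at an adjusted p under 0.05. In SCe against WT, 4 members were lower (Krt7, Krt8, Krt18 and Krt19) and 1 was higher (Vim), where 19.9% of 14925 genes tested were called lower and 22.4% higher. In Rptor fl/fl against WT, 2 members were higher (Krt18 and Krt23) and 1 was lower (Krt20), where 11.6% of 14131 genes were called higher and 11% lower. In Rptor fl/fl against SCe, 5 members were higher (Krt7, Krt8, Krt18, Krt19 and Krt23) and 1 was lower (Vim), where 21% of 15103 genes were called higher and 21.8% lower. All 8 members passed the count filter in these RNA-seq comparisons, which share their samples and are no independent evidence of each other. Whether the organoid lines came from separate animals is not in the labels, so p-values measure the spread between these lines and libraries. Where groups are said not to overlap, the share of all genes without overlap is not given, and with so few samples unchanged genes can also separate.

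**Figure D1:**
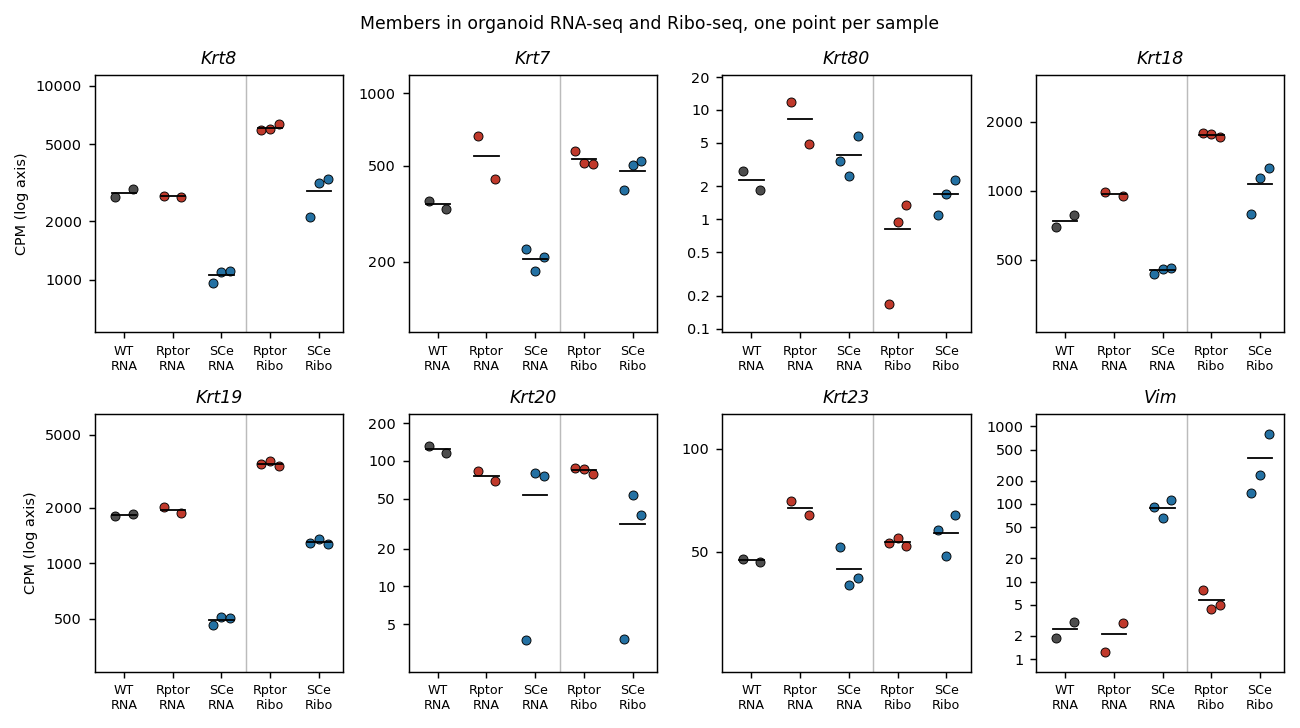
Level of each member in organoids (y axis: CPM, log scale), with 1 point per RNA-seq line or library (left of the grey line) and per Ribo-seq library (right) and a bar at the group mean. SCe points of Krt8, Krt18 and Krt19 lie below all WT and Rptor fl/fl points of the same assay, Vim shows the opposite order, and a single SCe library lies near 4 CPM for Krt20 in both assays.

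Krt8, the main type II keratin of the gut, measured 2685 and 2924 CPM in WT, 2720 and 2669 CPM in Rptor fl/fl and 967, 1103 and 1114 CPM in SCe. WT and Rptor fl/fl lines overlapped, and every SCe library was below them. Krt8 was 2.60-fold lower in SCe than in WT (log2 fold change -1.38, SE 0.108, adjusted p = 0.00171) and 2.54-fold higher in Rptor fl/fl than in SCe (1.35, SE 0.105, adjusted p = 0.00151). Between Rptor fl/fl and WT the difference was -0.06 (SE 0.101, adjusted p = 0.705), with a 95% interval of -0.32 to 0.21.

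Krt7 had 359 and 332 CPM in WT, 664 and 439 CPM in Rptor fl/fl and 225, 183 and 208 CPM in SCe. The groups did not overlap, with Rptor fl/fl highest and SCe lowest. Krt7 was lower in SCe than in WT (log2 fold change -0.73, SE 0.106, adjusted p = 0.00646; -0.69 and adjusted p = 0.0585 without the first WT line). Against SCe it was 2.69-fold higher in Rptor fl/fl (1.43, SE 0.199, adjusted p = 0.00535). The difference from WT in Rptor fl/fl, 0.67 (SE 0.208), missed the threshold at an adjusted p of 0.0787, and passed it in 4 of 10 alternatives. It was 0.34 without the first Rptor fl/fl line (adjusted p = 0.0750) and 0.96 without the second (adjusted p = 0.0155), and it missed the threshold without the first (0.73, adjusted p = 0.162) or the second WT line (0.62, adjusted p = 0.216).

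Krt80, a type II keratin, was scarce. It had 2.76 and 1.84 CPM in WT, 11.7 and 4.93 CPM in Rptor fl/fl and 3.44, 2.48 and 5.78 CPM in SCe. Rptor fl/fl lines were above WT lines and overlapped SCe. The log2 fold change of 1.85 (SE 0.479) against WT had an adjusted p of 0.0534, and passed the threshold in 5 of 10 alternatives. It ran from 1.101 without the first Rptor fl/fl line to 2.37 without the second.

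Krt18, the type I partner and neighbour of Krt8, had 698 and 785 CPM in WT, 990 and 949 CPM in Rptor fl/fl and 434, 456 and 460 CPM in SCe. The groups were ordered Rptor fl/fl, WT, SCe and did not overlap. It was 1.31-fold higher in Rptor fl/fl than in WT (log2 fold change 0.39, SE 0.0941, adjusted p = 0.0476) and 1.62-fold lower in SCe than in WT (-0.70, SE 0.0870, adjusted p = 0.00445). The first of these calls was lost without any of the 4 lines: the log2 fold change was 0.30 without the first WT line (adjusted p = 0.262), 0.47 without the second (adjusted p = 0.111), 0.35 without the first Rptor fl/fl line (adjusted p = 0.108) and 0.43 without the second (adjusted p = 0.0708).

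Krt19, a type I keratin of simple epithelia and crypt cells, had 1810 and 1859 CPM in WT, 2037 and 1883 CPM in Rptor fl/fl and 464, 513 and 503 CPM in SCe. SCe libraries were far below the others, and Rptor fl/fl lines lay just above WT lines. Krt19 was 3.66-fold lower in SCe than in WT (log2 fold change -1.87, SE 0.0864, adjusted p = 0.00114) and 3.98-fold higher in Rptor fl/fl than in SCe (1.99, SE 0.0963, adjusted p = 0.000978). Against WT the value in Rptor fl/fl was 0.09 (SE 0.0942, adjusted p = 0.499).

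Krt20 had 131.5 and 116.4 CPM in WT, 82.6 and 69.5 CPM in Rptor fl/fl and 3.78, 80.6 and 75.4 CPM in SCe. The lone low value was that of the first SCe library, the library with few enterocyte markers. Krt20 was 1.63-fold lower in Rptor fl/fl than in WT (log2 fold change -0.71, SE 0.110, adjusted p = 0.0202). Without the first WT line the value was -0.62 and missed the threshold. The call was also lost in the fit of all RNA-seq groups (adjusted p = 0.731). The comparison of SCe with WT gave -1.19 (SE 1.09, adjusted p = 0.419) with all libraries, and -0.65 (adjusted p = 0.00116) without the first SCe library. Rptor fl/fl against SCe gave 0.51 (adjusted p = 0.733) and, without that library, -0.04 (adjusted p = 0.753). Summed enterocyte markers were 6735 and 7335 CPM in WT and 5727 and 8994 CPM in Rptor fl/fl, which overlap, and 1 of the 8 was called lower in Rptor fl/fl.

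Krt23, a type I keratin that is low in normal gut, had 47.6 and 46.8 CPM in WT, 70.4 and 64.1 CPM in Rptor fl/fl and 51.7, 40.1 and 41.9 CPM in SCe. WT and SCe overlapped and Rptor fl/fl was above both. It was 1.43-fold higher than in WT (log2 fold change 0.51, SE 0.0685, adjusted p = 0.0165) and 1.51-fold higher than in SCe (0.60, SE 0.133, adjusted p = 0.0199). The call against WT was lost without the first (0.52, adjusted p = 0.0654) or the second WT line (0.50, adjusted p = 0.0589). That against SCe was lost without the first (0.53, adjusted p = 0.121) or second Rptor fl/fl line (0.67, adjusted p = 0.0766), and without the second (0.52, adjusted p = 0.0559) or the third SCe library (0.55, adjusted p = 0.0706). SCe against WT gave -0.06 (adjusted p = 0.719), and -0.18 with an adjusted p of 0.0391 without the first SCe library.

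Vim went the other way. It had 1.85 and 2.96 CPM in WT, 1.24 and 2.94 CPM in Rptor fl/fl and 90.1, 65.8 and 111 CPM in SCe. Vim was 37.5-fold higher in SCe than in WT (log2 fold change 5.23, SE 0.370, adjusted p = 0.00157) and 42.3-fold lower in Rptor fl/fl than in SCe (-5.40, SE 0.497, adjusted p = 0.00206). Both calls held in every alternative run, and the second was -4.91 without the first Rptor fl/fl line and -6.15 without the second. Without the first SCe library the values were 5.22 and -5.39. Rptor fl/fl and WT lines overlapped (-0.20, SE 0.484, adjusted p = 0.787).

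Many markers of the cells that normally make Vim were at or near 0 in these organoids, and some of those tested were higher in SCe than in WT. Of the 10 fibroblast markers, Col3a1, Col6a1 and Lum were at 0 in all 3 SCe RNA-seq libraries, and Fbln1, at 115 to 134 CPM in SCe and 93.8 to 95.2 CPM in WT, made up nearly all of the summed level of 120 to 141 CPM in SCe, 94.6 to 96.1 CPM in WT and 36.5 to 42.7 CPM in Rptor fl/fl. Between 3 and 6 of the 10 were at 0 in a sample. Among the 4 that passed the count filter in SCe against WT, 3 were called higher, with Col1a1 at 0.895 to 1.91 CPM against 0.0807 to 0.113 CPM and Pdgfra at 2.70 to 4.31 CPM against 0.363 to 0.378 CPM. The 12 immune markers summed to 2.74 to 5.13 CPM in SCe and 2.34 to 3.04 CPM in WT. Of 3 tested, 2 were called higher and 1 lower. The 6 endothelial markers summed to 1.55 to 2.11 CPM and 0.491 to 0.908 CPM. Of 3 tested, 1 was called higher and 0 lower. Cdh5 was at 0 in every organoid RNA-seq sample, and Plvap had 0.836 to 0.864 CPM in SCe and 0 in WT. The 6 mesothelial markers summed to 17.1 to 39.9 CPM in SCe and 148 to 174 CPM in WT. In WT that sum was mostly Msln, at 137 to 161 CPM against 0.518 to 31.9 CPM in SCe. Of 5 tested, 4 had a log2 fold change above 0 and 1 below, with 2 called higher and 0 lower. The 8 smooth muscle markers summed to 7.72 to 20.8 CPM in SCe and 49.5 to 50.9 CPM in WT, mostly Mylk, with 2 called higher and 1 lower of 4 tested and Acta2 at most 0.0516 CPM in SCe. The 8 epithelial markers summed to 3584 to 4242 CPM in SCe, below the 5708 and 5807 CPM of WT, and Epcam, which marks epithelial cells at large, had 710 to 840 CPM in SCe and 927 to 1005 CPM in WT.

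**Figure D2:**
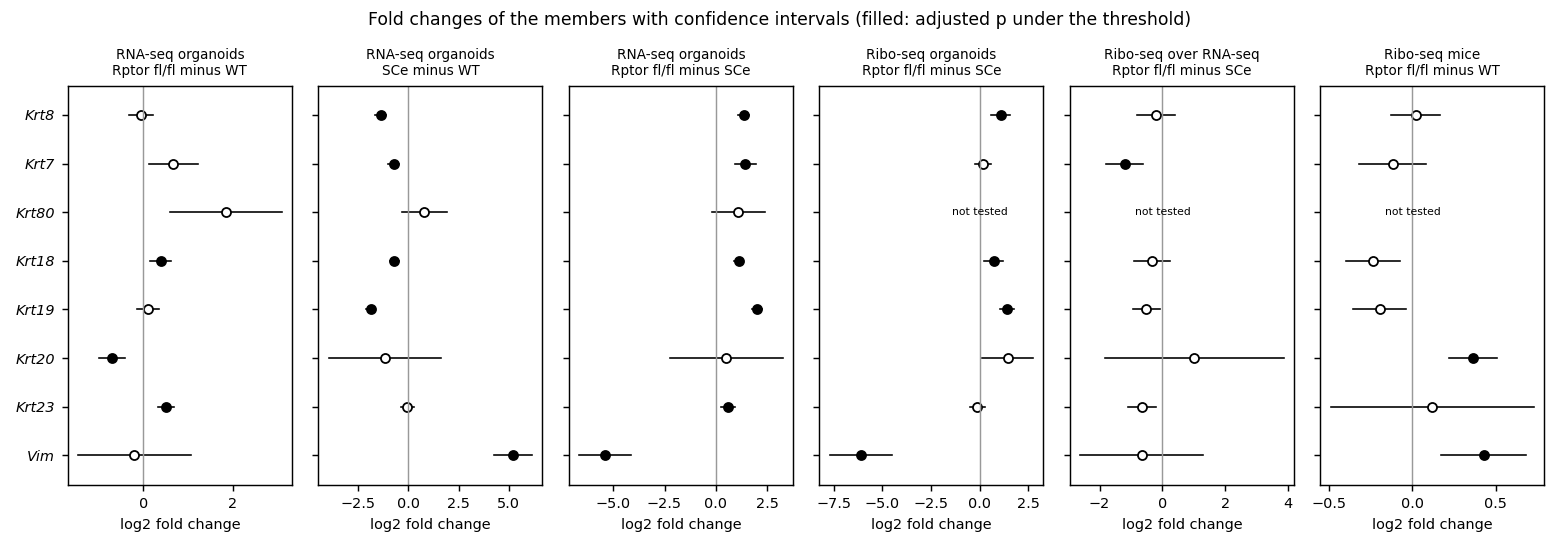
Log2 fold change (x axis) of each member in the 6 comparisons, with 95% confidence intervals; filled circles passed an adjusted p of 0.05, and the x axes differ between panels. Krt8, Krt18 and Krt19 lie left of 0 in SCe minus WT and right of 0 in both comparisons of Rptor fl/fl with SCe, with Vim opposite, while in mice only Krt20 and Vim are filled.

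In Ribo-seq of organoids, which answers whether the mRNA differences are seen on ribosomes, 3 members were higher in the Rptor fl/fl libraries than in SCe (Krt8, Krt18 and Krt19) and 1 was lower (Vim), where 6.63% of 10817 genes were called higher and 9.84% lower. Of the members, 7 of 8 passed the count filter. No WT Ribo-seq of organoids without enrichment was analysed here, so this comparison is with SCe only.

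Krt8 footprints were 5944, 5959 and 6341 CPM in the Rptor fl/fl libraries and 2117, 3156 and 3306 CPM in SCe (log2 fold change 1.09, SE 0.212, adjusted p = 0.0105). The groups did not overlap, and the call was lost without the second (1.11, adjusted p = 0.0505) or the third Rptor fl/fl library (1.07, adjusted p = 0.0598). Krt18 had 1791, 1773 and 1712 CPM against 795, 1141 and 1265 CPM (0.72, SE 0.207, adjusted p = 0.0462), a call lost without the first (0.71, adjusted p = 0.149), second (0.72, adjusted p = 0.153) or the third Rptor fl/fl library (0.75, adjusted p = 0.151) and without the second SCe library (0.77, adjusted p = 0.0774). Krt19 had 3475, 3611 and 3381 CPM against 1292, 1352 and 1272 CPM and was 2.67-fold higher (1.42, SE 0.162, adjusted p = 0.00147), a call kept under every alternative.

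Vim footprints were 7.80, 4.44 and 4.99 CPM (47, 28 and 41 reads) in the Rptor fl/fl libraries and 139, 234 and 806 CPM (257, 274 and 3494 reads) in SCe. The third SCe library was well above the other SCe libraries, and all 3 were above the Rptor fl/fl libraries. Vim was 69.1-fold lower in Rptor fl/fl (log2 fold change -6.11, SE 0.708, adjusted p = 0.00149), and the value was -5.01 without the third SCe library (adjusted p = 0.000669). The 10 fibroblast markers summed to 185, 377 and 521 CPM in the SCe libraries and 123 to 156 CPM in the others, and Fbln1 alone was 181 to 517 CPM of the SCe values, with Col3a1 at 0 in SCe. The 12 immune markers summed to 9.20, 6.82 and 0 CPM in SCe, with 8, 10 and 12 of them at 0. The part of these marker genes in the Vim difference was not tested.

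Krt20 had 87.4, 86.4 and 79.2 CPM in the Rptor fl/fl libraries and 3.79, 53.7 and 37.1 CPM in SCe, again lowest in the first SCe library. The difference of 1.45 (SE 0.577, adjusted p = 0.123) missed the threshold, and 0.96 without that library passed it (adjusted p = 0.00623). Krt7 (577, 515 and 507 against 396, 502 and 523 CPM; log2 fold change 0.17, adjusted p = 0.555) and Krt23 (52.9, 54.7 and 52.1 against 57.9, 48.6 and 64.1 CPM; -0.11, adjusted p = 0.694) overlapped between groups. Their 95% intervals were -0.23 to 0.57 and -0.49 to 0.27. Krt80 had 1, 6 and 11 reads and 2, 2 and 10 reads and was not tested.

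Translation efficiency, the footprint difference taken relative to the mRNA difference in a joint model, was called for a single member. That call was lost in 9 of 15 alternatives. Krt7 was lower in Rptor fl/fl than in SCe (log2 difference -1.20, SE 0.262, adjusted p = 0.0400), where 1.81% of 10747 genes were called lower and 1.12% higher, and 7 members were tested. Its mean footprint level over its mean mRNA level, both in CPM, was 0.966 in Rptor fl/fl and 2.30 in SCe, beside the 2.69-fold mRNA difference and the footprint difference of 0.17 given above. Same-numbered SCe libraries of RNA-seq and Ribo-seq deviated together, and no fit modelled that pairing. The call did not hold with a replicate block within each assay, joining same-numbered Rptor fl/fl and SCe libraries (-1.19, adjusted p = 0.209). Over all genes the block left 2 called lower and 2 higher. The call was not held either with an offset for effective length (-1.19, adjusted p = 0.0765). The call was also lost without the second SCe library of either assay (-1.16, adjusted p = 0.0558, in Ribo-seq and -1.13, adjusted p = 0.118, in RNA-seq), without the third SCe library of RNA-seq (-1.22, adjusted p = 0.105), without the first Rptor fl/fl line of RNA-seq (-0.88, adjusted p = 0.207) and without the first (-1.27, adjusted p = 0.0736), second (-1.18, adjusted p = 0.0977) or the third (-1.17, adjusted p = 0.109) Rptor fl/fl library of Ribo-seq. The RNA-seq and Ribo-seq libraries of Rptor fl/fl differ in genotype label, by the HA tag. Their stem cell markers differ too, as given above, and so do those of SCe between the assays.

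The other tested members did not pass in the main fit, though Krt19 passed in 1 of 15 alternatives and Krt23 in 2 of 15. Krt8 had -0.20 (adjusted p = 0.732), Krt18 -0.33 (adjusted p = 0.503), Krt19 -0.52 (adjusted p = 0.166) and Krt23 -0.65 (adjusted p = 0.103), with Krt23 at -0.76 and an adjusted p of 0.0446 without the first SCe library of RNA-seq. Footprint over mRNA was 2.26 and 2.69 for Krt8, 1.81 and 2.37 for Krt18 and 1.78 and 2.65 for Krt19, in Rptor fl/fl and SCe in turn. Vim, with ratios of 2.75 and 4.41, had a difference of -0.66 with a 95% interval from -2.62 to 1.30 (0.44 without the third SCe library of Ribo-seq), and Krt20 one of 1.01 with an interval from -1.84 to 3.86.

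Levels can be compared between the genes only per length, here as reads per kilobase of the deposited sequence per 1000000 reads. In WT RNA-seq the order was Krt8 (mean 1408, SD 95.6, n = 2), Krt19 (1144), Krt18 (508), Krt7 (147), Krt20 (63.2), Krt23 (29.6), Vim (1.09) and Krt80 (0.733), and only Vim and Krt80 overlapped as neighbours. Rptor fl/fl organoids kept the first 4 in this order, with Krt23 (43.6) and Krt20 (40.1) overlapping and Vim last. In SCe, Krt18 (314) and Krt19 (313) were level and overlapped, Krt8 led at 542 (SD 13.5, n = 3), and Vim (41.9) came next after Krt7 (90.5), overlapping Krt23 (28.8). In SCe Ribo-seq Vim, at 277 (SD 257, n = 3), overlapped Krt7 at 337, and in the libraries carrying the Rptor fl/fl label only Krt80 (0.598) was below Vim (3.96).

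**Figure D3:**
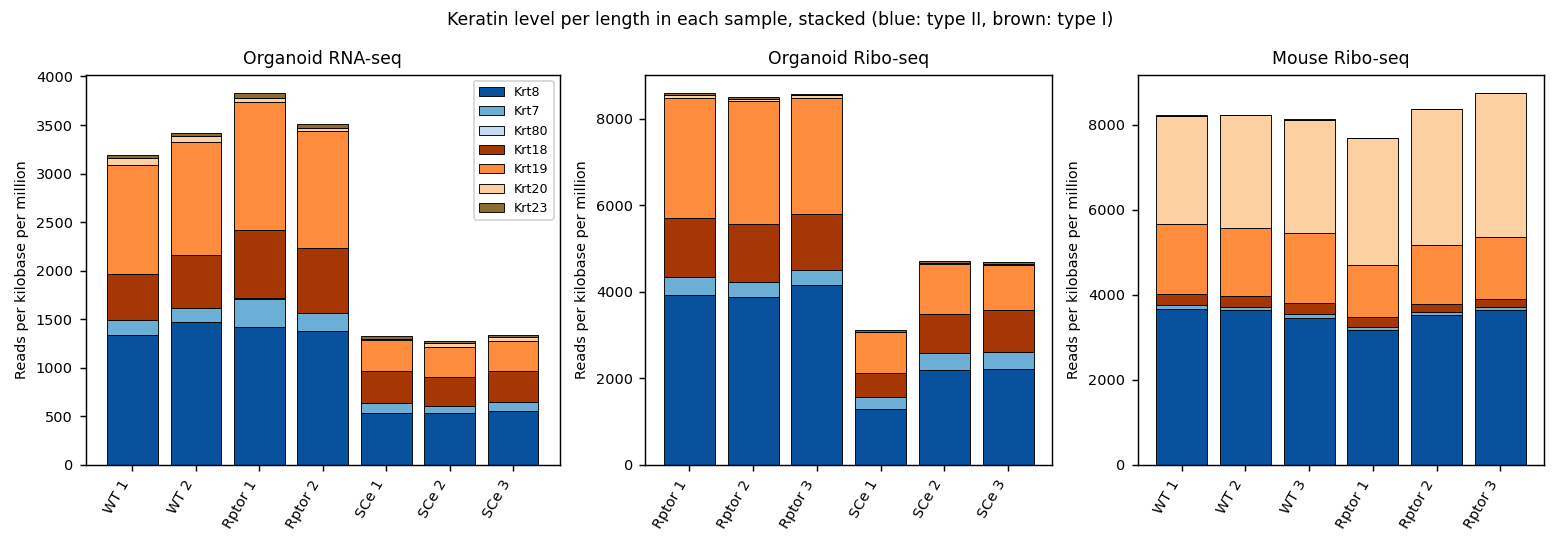
Keratin level per length (y axis: reads per kilobase per 1000000 reads) in each sample, stacked by gene, with type II genes in blue and type I genes in orange and brown; the y axes differ between panels. The stacks of SCe are the lowest in both organoid panels, and in mice the Krt20 part is larger in each Rptor fl/fl mouse than in each WT mouse. The mouse panel was counted on other sequences than the organoid panels and is not set against them.

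The keratin sums differed between SCe and WT by more than the type II to type I ratio did. Per length, type II over type I was 0.881 and 0.902 in WT, 0.812 and 0.803 in Rptor fl/fl and 0.931, 0.912 and 0.942 in SCe, while the type I sum was 1695 and 1795 in WT and 669 to 691 in SCe. In Ribo-seq the ratio was 1.02, 0.992 and 1.11 in the Rptor fl/fl libraries and 0.998, 1.21 and 1.24 in SCe, which overlap (exact permutation test, two-sided, p = 0.3). The ratio of Krt8 to Krt18 was 2.82 and 2.73 in WT RNA-seq, 2.02 and 2.07 in Rptor fl/fl and 1.64, 1.78 and 1.78 in SCe, with no overlap between groups. An exact two-sided permutation test cannot go below p = 0.333 for 2 lines against 2 or p = 0.2 for 3 libraries against 2. In Ribo-seq this ratio was 2.88, 2.92 and 3.21 in the Rptor fl/fl libraries and 2.31, 2.40 and 2.27 in SCe (exact permutation p = 0.1, the smallest that 3 against 3 allow).

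In mice, 2 members were higher in Rptor fl/fl than in WT (Krt20 and Vim) and none was called lower, where 7.47% of 11515 genes were called higher and 5.97% lower; 7 members were tested. The unadjusted p of edgeR was under 0.05 for 2 members that were lower, Krt18 and Krt19, and DESeq2 called neither. The mouse reads were counted on the 5′ region with the coding sequence and the organoid reads on the coding sequence alone, so levels are not set against each other here.

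**Figure D4:**
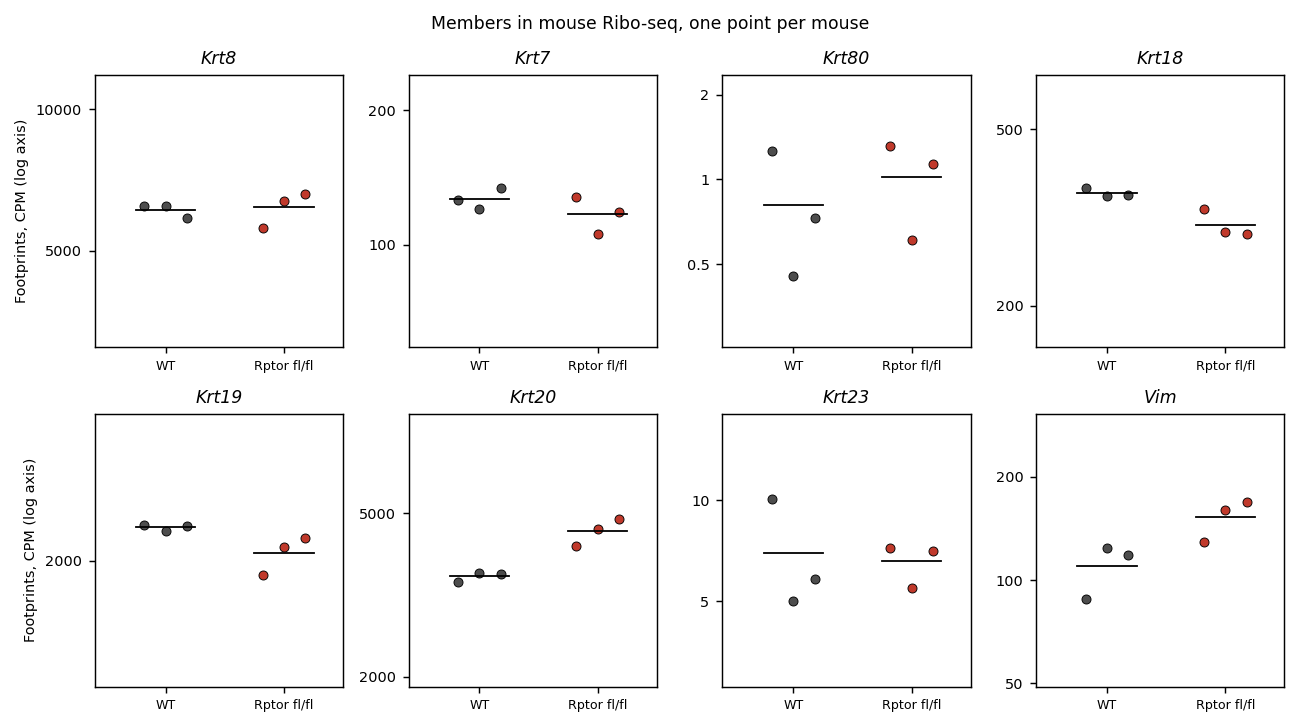
Footprints of each member in mice (y axis: CPM, log scale), with 1 point per mouse and a bar at the group mean. Rptor fl/fl mice lie above WT mice for Krt20 and Vim and below them for Krt18 and Krt19, without overlap, and the groups overlap for the other members.

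Krt20 had 3408, 3586 and 3559 CPM in WT mice and 4164, 4578 and 4848 CPM in Rptor fl/fl mice. The groups did not overlap, and Krt20 was 1.29-fold higher in Rptor fl/fl (log2 fold change 0.36, SE 0.0683, adjusted p = 0.00217), a call kept under every alternative. Per length it made up 56.9%, 59.0% and 58.1% of the type I keratin footprints in WT and 67.2%, 66.9% and 67.3% in Rptor fl/fl (exact permutation p = 0.1, the smallest possible). The 8 enterocyte markers summed to 42300 to 43508 CPM in WT and 48014 to 51453 CPM in Rptor fl/fl, 4 of them called higher and 1 lower, and none was at 0. Their part in the Krt20 difference was not tested.

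Vim had 88.0, 124 and 119 CPM in WT mice and 129, 159 and 169 CPM in Rptor fl/fl mice. It was 1.35-fold higher in Rptor fl/fl (log2 fold change 0.43, SE 0.119, adjusted p = 0.0274). The call was lost without the first (0.35, adjusted p = 0.0798) or the third WT mouse (0.48, adjusted p = 0.0849), without the second (0.41, adjusted p = 0.109) or the third Rptor fl/fl mouse (0.34, adjusted p = 0.122) and with an offset for effective length (0.39, adjusted p = 0.215). The 10 fibroblast markers moved with it, from 1329 to 1419 CPM in WT to 1636 to 1856 CPM in Rptor fl/fl, with 5 of 10 called higher and none at 0. The 6 endothelial markers summed to 104 to 136 against 139 to 167 CPM, with 2 of 6 called higher, and the 12 immune markers to 1477 to 1539 against 1253 to 1343 CPM, with 2 called higher and 1 lower of 11 tested. Most of the immune sum was Jchain, at 991 to 1060 CPM in WT and 724 to 779 CPM in Rptor fl/fl. Of the 11 immune markers tested, 7 had a log2 fold change above 0 and 4 below. The part of these marker lists in the Vim difference was not tested.

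Krt18 had 369, 353 and 355 CPM in WT mice and 331, 294 and 290 CPM in Rptor fl/fl mice, and Krt19 had 2410, 2334 and 2406 against 1849, 2144 and 2247 CPM. Both were lower in every Rptor fl/fl mouse than in any WT mouse. Neither passed the threshold (log2 fold changes -0.24, SE 0.0765, adjusted p = 0.0546 and -0.20, SE 0.0750, adjusted p = 0.101), and Krt18 passed it without the first Rptor fl/fl mouse (-0.29, adjusted p = 0.00708). Krt8 (6226, 6213 and 5868 against 5597, 6383 and 6582 CPM), Krt7 (126, 120 and 134 against 128, 106 and 119 CPM) and Krt23 (10.1, 5.00 and 5.82 against 7.21, 5.46 and 7.04 CPM) overlapped. Krt8 differed by 0.02 with a 95% interval of -0.13 to 0.17. Krt80 had at most 9 reads in a mouse and was not tested.

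Per length, Krt8 led in WT mice (mean 3590, SD 111, n = 3), followed by Krt20 (2620), Krt19 (1629), Krt18 (263), Krt7 (88.2), Vim (61.0), Krt23 (5.21) and Krt80 (0.650), with no overlap between neighbours. In Rptor fl/fl mice Krt8 (3443) and Krt20 (3191) overlapped, as did Vim (77.5) and Krt7 (77.4). Type II over type I was 0.841, 0.826 and 0.778 in WT and 0.733, 0.752 and 0.737 in Rptor fl/fl (exact two-sided permutation p = 0.1).

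The genes with the RNA-seq profile nearest to a member, by root mean square distance of centred log2 CPM over the 7 RNA-seq samples among 10696 genes, were Plpp2 (0.0709) and N4bp2 (0.0717) for Krt8, Fam83h (0.112) and Foxk1 (0.143) for Krt7, Plekhh1 (0.0527) and Mindy1 (0.0561) for Krt18, and Tmem79 (0.0708) and Zbtb26 (0.0825) for Krt19. Fam83h encodes a protein that binds keratin filaments. For Krt20, Ces2c (0.291) was among them, for Krt23 they were Lmo7 (0.0398) and Osbpl3 (0.0576), and for Krt80 Kifc3 (0.351) and Igsf9b (0.381). For Vim they were Gli1 (0.382), a transcription factor of Hedgehog signalling, and Lgals1 (0.474), which encodes galectin 1. The 7 samples fall into the 3 organoid groups, and samples of a group share a genotype and medium.

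Keratin linkers, the desmosomal, plakin and hemidesmosomal genes that tie keratin to junctions and matrix, gave 11 lower and 0 higher of 20 tested in SCe against WT, with a median log2 fold change of -0.53 against 0.02 over all genes. Of all genes tested, 19.9% were called lower and 22.4% higher. The 3 with the smallest adjusted p were the desmosomal genes Dsc2 (-0.93, adjusted p = 0.00166), Jup (-0.63, adjusted p = 0.00256) and Pkp2 (-0.57, adjusted p = 0.00267). In Rptor fl/fl against WT, 8 of 20 were higher and 1 lower (median 0.24 against -0.0049), led by Itgb4, a hemidesmosome integrin (1.22, adjusted p = 0.0107), and the plakins Evpl (0.77, adjusted p = 0.0111) and Ppl (1.11, adjusted p = 0.0137). The shares over all genes were 11.6% higher and 11% lower. In Rptor fl/fl against SCe, 14 of 20 were higher and 0 lower, led by Plec (1.81, adjusted p = 0.00107), Evpl (2.00, adjusted p = 0.00110) and Jup (1.05, adjusted p = 0.00110). The shares over all genes were 21% higher and 21.8% lower. In footprints, 2 of 19 were higher, Evpl (1.79, adjusted p = 0.00492) and Pkp3 (0.67, adjusted p = 0.0214), and Perp was lower (-0.78, adjusted p = 0.0109). These counts are near the shares over all genes, 6.63% higher and 9.84% lower. Translation efficiency, in the fit without the replicate block, was lower in Rptor fl/fl for Perp (-1.05, adjusted p = 0.0129), Itgb4 (-1.44, adjusted p = 0.0204) and Jup (-0.79, adjusted p = 0.0417). Of all genes, 1.81% were called lower there. In mice 3 of 19 linkers were higher and 2 lower, with Eppk1 (-0.68, adjusted p = 3.92e-05) and Dst (-0.61, adjusted p = 0.000164) lower and Dsc2 higher (0.49, adjusted p = 0.000529). Over all genes in mice, 7.47% were called higher and 5.97% lower.

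Few of the 46 other keratins were expressed: 13 passed the count filter in SCe against WT, 9 in Rptor fl/fl against WT and 1 in mice. Krt4, a type II keratin of stratified epithelia, had 5.18 to 6.59 CPM in WT, 56.2 to 87.5 CPM in Rptor fl/fl and 0.157 to 0.430 CPM in SCe. It was the only other keratin called in Rptor fl/fl against WT (log2 fold change 3.61, SE 0.271, adjusted p = 0.00894), and its footprints were also higher in Rptor fl/fl than in SCe (4.89, adjusted p = 0.0117) although they came to 3.65 to 7.47 CPM and 0 to 0.541 CPM. Krt79 was listed at 1.55 to 2.18 CPM in WT and 0 to 0.0334 CPM in SCe and was called lower there (adjusted p = 0.00277), and Krt88, at 0.534 to 0.635 CPM in SCe and 0.0378 to 0.0403 CPM in WT, was called higher (adjusted p = 0.00301). Krt39 mRNA was lower in Rptor fl/fl than in SCe (-2.70, adjusted p = 0.00743) and Krt87 footprints were higher (2.58, adjusted p = 0.0340). In mice the 1 tested other keratin, Krt14, was higher in Rptor fl/fl (0.95, adjusted p = 0.0431), at 10.9 to 13.6 CPM against 4.18 to 11.3 CPM.

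The 16 other intermediate filament genes build filaments of muscle, nerve and the nuclear lamina. In SCe against WT 3 were higher and 2 lower of 12 tested, where 22.4% of all genes were called higher and 19.9% lower. Nes, the nestin gene, was higher beside Vim (log2 fold change 3.55, SE 0.452, adjusted p = 0.00472), at 11.7 to 26.7 CPM in SCe and 1.35 to 1.78 CPM in WT. Des, the desmin gene of muscle, was also called higher (adjusted p = 0.00454), at 0.516 to 0.736 CPM in SCe with no read in the WT lines, and Lmnb1, a lamin gene, was lower (-0.43, adjusted p = 0.00713). Nes footprints were lower in Rptor fl/fl than in SCe too (-2.96, adjusted p = 0.00446), at 1.43 to 3.15 against 8.66 to 21.3 CPM, as were those of Iffo2 (-1.11, adjusted p = 0.0128). In Rptor fl/fl against WT the neurofilament gene Nefh was higher (1.92, adjusted p = 0.0209) and Ina (-2.54, adjusted p = 0.0426) and Nefl (-2.27, adjusted p = 0.0465) were lower. In mice Lmnb1 (-0.47, adjusted p = 0.00302) and Synm (-0.51, adjusted p = 0.0366) were lower.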

How the data were processed

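Before deposit the authors cut adapters from Ribo-seq reads (cutadapt 1.18), filtered out rRNA, and ran Salmon 1.1.0 against GENCODE vM21 protein-coding sequences. The deposited files give an estimated count per sequence, which need not be whole, with its length and effective length. RNA-seq was counted on transcripts, organoid Ribo-seq on coding sequences, and mouse Ribo-seq on the 5′ region with the coding sequence. Entries for upstream open reading frames were left out of gene counts. The authors' table of translation efficiency, with their ratios, fold changes and p-values, was not used.

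Estimated counts were summed per gene and per organoid line and rounded. Tests used edgeR 4.0.16 in R 4.3.3 with filterByExpr, TMM, the quasi-likelihood test and Benjamini-Hochberg adjustment over all genes tested at 0.05, each comparison on its own groups. For translation efficiency, a joint model of both assays held an assay by group interaction. Pairing was read from the data. Deviations from group means of the 3 same-numbered SCe libraries correlated at 0.288, 0.115 and 0.216 between RNA-seq and Ribo-seq. The blocked fit given beside translation efficiency joins same-numbered Rptor fl/fl and SCe libraries within each assay. It does not model the pairing of SCe across assays. Scripts were tested on simulated data. Standard errors are those of the log2 fold change, and intervals are 95% confidence intervals. Alternatives were DESeq2 1.42.0, no count filter, an effective length offset, a replicate block, leaving out each sample, technical libraries as samples and a joint RNA-seq fit. Sequences, windows and figures used Python 3.11.15.

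Named genes were the 8 members, Rptor, the 2 genes nearest to each member (mean of at least 5 CPM, 0.5 CPM added before the log) and the 3 smallest adjusted p past the threshold in each related list (1 nearest gene and some sequences are not reported here); marker genes beside a result, Lgr5, Olfm4, Ascl2, Smoc2, Axin2, Mylk, Acta2, Fbln1, Col1a1, Col3a1, Col6a1, Lum, Pdgfra, Cdh5 and Epcam, were singled out after their values were seen. Plvap, Jchain and Msln were singled out in the same way. The members and lists were chosen with earlier results of these data known.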

Additional observations from a re-analysis of the deposited data

Results flagged for a closer look

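The sign of the Rptor fl/fl effect differed between organoid RNA-seq and mouse Ribo-seq for Krt18, Krt19 and Krt20. It also differed for Krt7, Krt8 and Vim, whose groups overlapped in organoids, in mice or in both. The share of all genes that changed sign in this way is not given. For Krt20 the log2 fold change against WT was -0.71 in organoids and 0.36 in mice, and both passed the threshold. The organoid call was lost in 2 alternatives. For Krt18 it was 0.39 in organoids, past the threshold, and -0.24 in mice, not past it. For Krt19 it was 0.095 and -0.20, neither past it. These differences were not tested, and the organoid and mouse samples also differ in assay, Cre driver and cell types.

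Footprints on upstream entries, which the comparisons left out, were above the SCe level for Krt8. Per 100000 footprints on all upstream entries, the lowest Rptor fl/fl library had 53.3 on the Krt8 entry and the highest SCe library 34.3. As a share of all Krt8 footprints they were 0.400% to 0.415% in Rptor fl/fl and 0.244% to 1.29% in SCe, so the shares overlap. The Krt19 entry had 4.25% of the footprints of that gene in the first SCe library, 0.751% and 0.649% in the other SCe libraries and 0.362% to 0.555% in Rptor fl/fl. No Vim entry had a footprint in the Rptor fl/fl libraries, which had 28 to 47 coding footprints, and 3 to 17 were counted in SCe.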

How the results depend on the processing

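Of the 21 member results that passed the threshold, 12 kept direction and side under every alternative run: Krt7, Krt8, Krt18, Krt19 and Vim in RNA-seq of Rptor fl/fl against SCe, Krt8, Krt18, Krt19 and Vim in SCe against WT, Krt19 and Vim in organoid Ribo-seq, and Krt20 in mice. Of 485 alternative member values, 421 kept direction and side, 38 lost the threshold, 16 gained it and 10 changed sign, none of the latter a called value; the causes were not tested. In RNA-seq of Rptor fl/fl against WT, DESeq2 called 5 members, technical libraries as samples 3566 genes higher, 3642 lower and 5 members, and a fit of all RNA-seq groups 821, 723 and 0. An offset for effective length gave 266 genes higher and 393 lower in organoid Ribo-seq, 61, 55 and 0 members in translation efficiency, and 390, 288 and 1 member in mice. DESeq2 gave 501, 705 and 3 members in translation efficiency and 415 genes lower in mice.

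With a replicate block, Rptor fl/fl against WT in RNA-seq gave 2392 genes lower and 5 members, Rptor fl/fl against SCe 1673 higher and 1740 lower, SCe against WT 1753 and 1401, and translation efficiency 2, 2 and 0 members, with Krt20 at -0.30; 40 of 45 member values kept direction and side. The block joins same-numbered samples within an assay, so SCe libraries were not paired across assays in any fit. In the main fits, shared numbers were not taken as pairs. Deviations of same-numbered samples correlated at -0.055 to 0.026 in organoid Ribo-seq and -0.016 to 0.038 in mice. The RNA-seq groups correlated at 0.505 (WT with Rptor fl/fl), 0.381 and 0.349 (SCe with Rptor fl/fl) and 0.296 and 0.278 (WT with SCe), but share only 2 numbers, and Rptor fl/fl across assays at 0.053 and 0.024.

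Leaving out 1 sample at a time gave 540 to 1186 genes higher, 399 to 940 lower and 0 to 4 members for Rptor fl/fl against WT in RNA-seq, where Krt8 ran from -0.12 to 0.0044 and Vim from -0.94 to 0.29. It gave 1216 to 4582, 1293 to 4519 and 5 to 6 members against SCe, with Krt20 at -0.039 to 0.93, and 1154 to 4744, 873 to 4786 and 4 to 7 members for SCe against WT, with Krt23 at -0.18 to 0.0073. Organoid Ribo-seq gave 235 to 1170, 434 to 1512 and 2 to 5 members. Translation efficiency gave 12 to 401, 13 to 550 and 0 to 2 members, with Vim at -1.15 to 0.44. Mice gave 517 to 1095, 380 to 859 and 1 to 3 members, with Krt8 at -0.023 to 0.094. A sample left alone in its group was assumed to vary like the other group.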
